A study of Mus musculus with 16 samples.

Results

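The Sestrins and the Ddit4 genes encode stress-induced inhibitors of the kinase mTORC1, and all 5 mouse genes of both families, Sesn1, Sesn2, Sesn3, Ddit4 and Ddit4l, are described here in mouse embryonic stem (ES) cells treated with doxorubicin, a DNA-damaging drug. They were chosen by symbol from the 22375 genes in the deposited tables, and all 5 were among the 15758 genes that passed the filter on low counts. The study asked how Cfp1, encoded by Cxxc1, affects trimethylation on lysine 4 of histone H3 when genes respond to DNA damage. Cfp1 is a component of the Set1 complex, which places this mark. The study also tested whether the altered mark changes the transcriptional response, and only RNA-Seq is described here. Wild-type (WT) E14Tg2a cells and Cfp1-/- cells, both of the 129/OLA strain and both grown in serum with leukemia inhibitory factor, were left untreated or were given doxorubicin for 6 hours, and ribosomal RNA-depleted total RNA was sequenced by strand-specific RNA-Seq. The dose was 1 µM by the treatment protocol and the series' design, whereas the treatment label of the samples reads 1 mM. Each of the 4 groups held 2 biological replicates, each sequenced as 2 technical replicates, giving 16 samples. Nothing in the labels gives the number of Cfp1-/- clones behind these samples, so the line and the genotype cannot be told apart.

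Sestrin proteins act on the amino acid branch of the pathway. Sesn1 and Sesn2 bind the GATOR2 complex when leucine is scarce and so relieve GATOR1, which keeps the Rag GTPases from recruiting mTORC1 to the lysosome. Sestrins are also known for their effects on AMPK and on the Keap1 and Nrf2 antioxidant system. Ddit4 (also called Redd1) and its paralog Ddit4l (Redd2) act on the growth factor branch, through the TSC complex that turns off the GTPase Rheb. Sesn1 and Sesn2 and Ddit4 are known p53 targets, Sesn2 and Ddit4 are also induced by the transcription factor Atf4, Ddit4 by hypoxia, and Sesn3 by the Foxo factors.

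Each of the 8 biological replicates held between 14880589 and 29422711 counts. Cxxc1, the targeted gene, had 616 to 1412 raw counts in the 4 WT libraries and 1 to 5 in the 4 Cfp1-/- libraries. Technical replicates agreed within sampling noise in 6 of the 8 libraries (chi-square per degree of freedom 0.998 to 1.05), but this ratio was 9.61 in replicate 1 of doxorubicin-treated WT cells and 42.9 in replicate 1 of doxorubicin-treated Cfp1-/- cells. In the latter, the second run had no counts for 209 of the 291 genes of chromosome 19 with at least 200 counts in the first run and for 225 of 280 such genes of chromosome X. No Sestrin or Ddit4 gene lies on these chromosomes. In this library the second run held 0.518 of the counts of the first, and from 0.523 (Sesn3) to 0.666 (Ddit4l) for the 5 genes. In replicate 1 of treated WT cells it held 0.58, and from 0.589 (Sesn1) to 0.725 (Ddit4) for the 5 genes. The cause of the run difference in that WT library was not tested. All 10 ES cell markers were expressed, and 9 of them fell with doxorubicin in WT cells and 8 in Cfp1-/- cells. The summed level of the 10 markers was 71730 to 97946 normalized counts in untreated and 27609 to 37770 in treated WT cells, and 84116 to 85122 and 32390 to 40264 in Cfp1-/- cells. The 8 fibroblast markers, with Lum and Twist2 too low to be tested, summed to 250 to 262 untreated and 433 to 575 treated in WT cells and to 128 to 135 and 395 to 549 in Cfp1-/- cells, and 3 of the 6 tested rose and 0 fell in each line. The 8 endoderm and mesoderm markers, with Foxa2 too low to be tested, summed to 94 to 206 untreated and 109 to 139 treated in WT cells and to 61 to 86 and 176 to 207 in Cfp1-/- cells. Of the 7 tested, 3 rose and 1 fell in WT cells, and 4 rose and 0 fell in Cfp1-/- cells. Beside these marker counts, all at an adjusted p below 0.05, 26.5% of all genes tested rose and 21.8% fell in WT cells. In Cfp1-/- cells 27.8% rose and 21.0% fell. The part of these marker changes in the results below was not tested. In bulk RNA, more cells expressing a gene and more RNA per cell cannot be told apart.

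The genes lie at separate places in the genome, and no exon of them overlaps an exon of another annotated gene. In the NCBIm37 (mm9) coordinates of the deposited tables, Sesn1 (ENSMUSG00000038332) spans chr10:41530380-41628230 on the plus strand and Ddit4 (ENSMUSG00000020108) spans chr10:59412423-59414518 on the minus strand. Sesn2 (ENSMUSG00000028893) spans chr4:132047947-132066416 on the minus strand and Sesn3 (ENSMUSG00000032009) chr9:14080745-14130582 on the plus strand. Ddit4l (ENSMUSG00000046818) spans chr3:137284576-137291297 on the plus strand.

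Because p53 is the factor most closely tied to a doxorubicin response, the DNA within 5000 bases on either side of the starts of Ddit4, Sesn1, Sesn2 and Sesn3 was searched for the p53 consensus response element, a pair of adjacent decamers with no spacer, with the invariant C and G of each decamer required. The consensus is its own reverse complement, so both strands were covered. Ddit4 held 2 matches with 0 mismatches, one at chr10:59419209-59419228, 4701 bases before its start, and one at chr10:59411250-59411269, 3258 bases past its start and beyond the annotated end of the gene. Of all 15758 genes tested, 32 (0.203%) had such a match in a window of this size. The best matches near the starts of Sesn1 and Sesn3 had 3 mismatches, which 42% of genes reached, and the window of Sesn2 held none with 3 or fewer. Sesn1 has a second annotated start at position 41607245 of chromosome 10, and a match with 3 mismatches lay 163 bases before it, at chr10:41607072-41607091. The elements are shown in the direction of each gene, with both decamers in capitals, mismatched bases included. They are the closest matches found at Ddit4 and the one nearest a start of Sesn1. A match is a description of the sequence and not a measured site.
Ddit4, before the start: agggaAAGCATGTCCAGGCTAGCCCccatg
Ddit4, past the gene: actccAGACTTGCCTGGACTAGTCTagatg
Sesn1, before the second start: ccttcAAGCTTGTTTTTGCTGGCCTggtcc

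The RefSeq promoters (GRCm38.p6) of all 5 genes were found by symbol, Sesn1 with 2 of them. Each promoter is 300 bases, 250 before and 50 after the start. All 6 were rich in G and C (62.7% to 71% against a median of 52.7% over 32851 promoters) and in CpG dinucleotides (14 to 31 against a median of 7). Letters of the CCAAT box (CCAAT), the GC box (GGGCGG), the TATA box (TATAA) and the core of the hypoxia response element (ACGTG) were searched on both strands, and no 2 of these motifs overlap in the sequences shown. CCAAT was present in 37.4% of all promoters, GGGCGG in 35.7%, TATAA in 24.9% and ACGTG in 19.6%. The promoter of Ddit4 held 2 CCAAT boxes, 1 GC box, 1 TATA box and 1 ACGTG. Sesn2 held 2 CCAAT boxes and 1 GC box, and Sesn3 held 4 and 2. Ddit4l held 2 GC boxes, 1 TATA box 35 bases past the start, outside the bases printed, and no CCAAT box within its window. The 250 bases before the start are printed for the 3 genes that rose together, in the direction of transcription, with CCAAT, GC and TATA boxes in capitals. Ddit4 is at chr10:59951771-59952020 (minus strand), Ddit4l at chr3:137623422-137623671 (plus strand) and Sesn2 at chr4:132510457-132510706 (minus strand).
Ddit4 promoter: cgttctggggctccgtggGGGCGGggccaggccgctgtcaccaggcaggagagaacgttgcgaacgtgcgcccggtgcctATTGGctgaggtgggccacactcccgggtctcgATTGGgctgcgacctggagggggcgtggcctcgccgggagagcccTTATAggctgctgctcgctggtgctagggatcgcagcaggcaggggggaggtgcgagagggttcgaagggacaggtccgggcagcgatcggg
Ddit4l promoter: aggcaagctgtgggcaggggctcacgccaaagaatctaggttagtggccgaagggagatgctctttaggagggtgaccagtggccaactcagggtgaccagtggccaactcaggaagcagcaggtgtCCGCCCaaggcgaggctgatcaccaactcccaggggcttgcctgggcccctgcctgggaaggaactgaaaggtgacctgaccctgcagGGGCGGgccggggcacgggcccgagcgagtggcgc
Sesn2 promoter: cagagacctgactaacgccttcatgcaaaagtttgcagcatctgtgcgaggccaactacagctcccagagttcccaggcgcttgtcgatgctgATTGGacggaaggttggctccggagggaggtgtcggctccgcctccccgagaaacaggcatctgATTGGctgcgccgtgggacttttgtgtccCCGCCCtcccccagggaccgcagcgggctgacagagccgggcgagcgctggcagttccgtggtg

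Doxorubicin raised Ddit4l, Ddit4 and Sesn2 in WT ES cells, lowered Sesn3 slightly and left Sesn1 without a call. Values are normalized counts, that is, counts of a library divided by its size factor. Changes are log2 fold changes from edgeR's quasi-likelihood test with their standard errors (SE) and Benjamini-Hochberg adjusted p-values over all 15758 genes, with 2 biological replicates a group. Of the 5 genes, 3 rose and 1 fell at an adjusted p below 0.05, where 26.5% of all genes tested rose and 21.8% fell. The same 3 passed the stricter limits the study set (at least 2.5-fold, a mean of at least 200 normalized counts), which 5.10% of genes passed upward and 2.80% downward. The median change of the 5 genes was 1.61, beside 0.06 over all genes. Where libraries are said below not to overlap, this is a description only. With 2 libraries a group such separation can easily arise without a difference, and its share over all genes was not counted. Counts of genes with an unadjusted p below 0.05 are also descriptions only, since the share of all genes at that threshold was not counted.

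**Figure D1:**
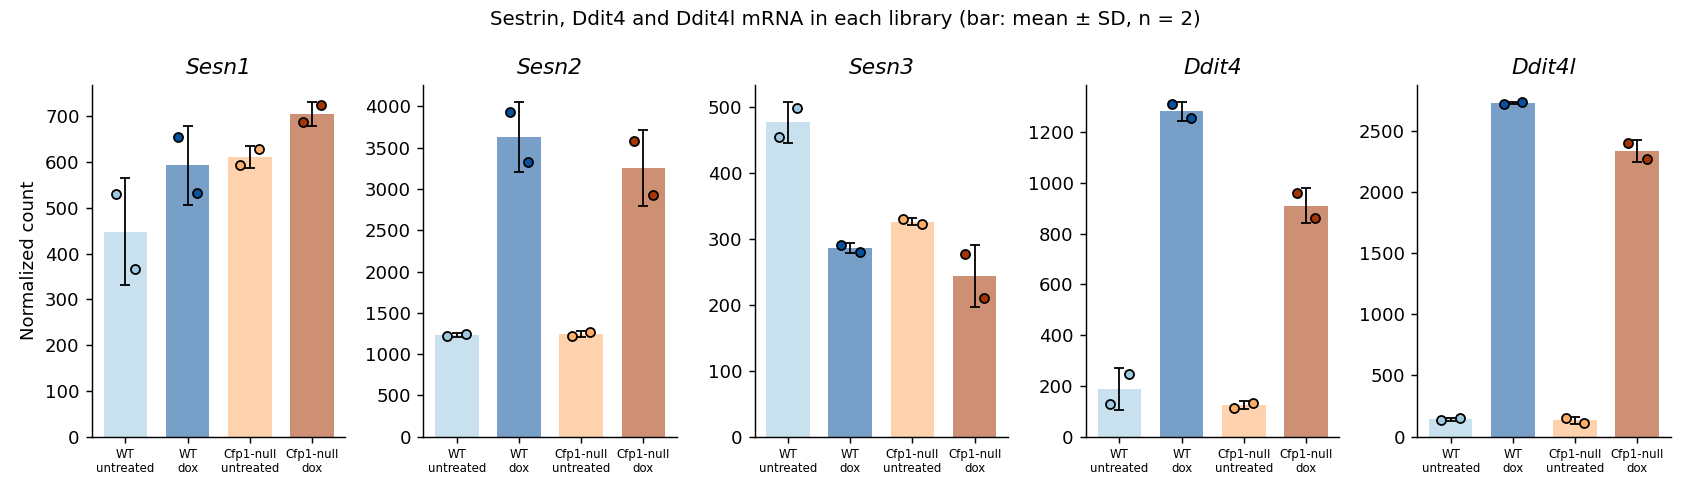
Normalized counts (vertical axis, each panel with its own scale) of Sesn1, Sesn2, Sesn3, Ddit4 and Ddit4l in the 4 groups. Points are biological replicates 1 and 2, and bars with error bars are the mean ± SD of n = 2. Treated libraries stand above all untreated ones for Sesn2, Ddit4 and Ddit4l in both lines and below all untreated ones for Sesn3.

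Ddit4l, the less studied of the paralogs, had the largest response. It was at 132.5 and 152.2 normalized counts in untreated and 2719 and 2734 in treated WT cells. Both treated libraries were far above both untreated ones, and their spread was small (SD 10.0 for n = 2). The increase was 19.8-fold (log2 4.31, SE 0.186, adjusted p = 1.65e-06), higher than the change of 96.97% of all genes. In Cfp1-/- cells Ddit4l was at 155.7 and 114.1 without and 2397 and 2266 with doxorubicin. This was a 17.8-fold increase (log2 4.15, SE 0.184, adjusted p = 2.70e-06), again with no overlap between treated and untreated libraries.

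Ddit4, the hypoxia- and stress-induced activator of the TSC complex, was the next largest. Its counts were 129.1 and 245.0 in untreated and 1309 and 1256 in treated WT cells. The untreated replicates differed from each other more than the treated ones did (SD 81.9 against 37.3), so the fold within a pair of equal replicate number was 10.1 for replicate 1 and 5.13 for replicate 2. The fitted increase was 7.11-fold (log2 2.83, SE 0.271, adjusted p = 3.79e-05), higher than the change of 92.21% of all genes. Ddit4 in Cfp1-/- cells went from 112.2 and 134.4 to 957.9 and 860.9. The increase there was 7.59-fold (log2 2.92, SE 0.275, adjusted p = 3.88e-05), and the treated and untreated libraries did not overlap.

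Sesn2, a leucine-binding Sestrin, rose from a higher base. It was at 1215 and 1245 normalized counts in untreated and 3932 and 3330 in treated WT cells. The treated replicates spread more (SD 426) than the untreated ones (SD 21.2) but all lay above them. The increase was 3.05-fold (log2 1.61, SE 0.148, adjusted p = 3.03e-05), higher than the change of 83.54% of all genes. Sesn2 in Cfp1-/- cells was at 1221 and 1266 without and 3582 and 2926 with the drug, a 2.70-fold increase (log2 1.43, SE 0.147, adjusted p = 6.03e-05). In both lines replicate 1 was the higher of the treated replicates.

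Sesn3, the Foxo-linked Sestrin, moved the other way. It was at 454.4 and 498.3 in untreated and 290.8 and 279.9 in treated WT cells, with no overlap. This was a 1.62-fold decrease (log2 -0.69, SE 0.195, adjusted p = 0.0151). The call was lost without replicate 2 of untreated WT cells (adjusted p = 0.0667) and without replicate 2 of treated WT cells (adjusted p = 0.0618). It was also lost when counts were scaled by library totals (log2 -0.38, adjusted p = 0.129), a scaling that moved the median change of all genes from 0.06 to 0.37. Sesn3 in Cfp1-/- cells was at 329.1 and 322.0 without and 276.8 and 210.2 with doxorubicin. The difference did not pass the test there (log2 -0.38, SE 0.195, adjusted p = 0.138), although the treated libraries were the lower ones.

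Sesn1, the other p53-linked Sestrin, had no call in either line in the main fit. It was at 530.0 and 365.9 normalized counts in untreated and 653.7 and 531.3 in treated WT cells, so that the lower treated library was level with the higher untreated one. The difference did not pass the test (log2 0.45, SE 0.203, 95% interval -0.01 to 0.90, adjusted p = 0.0958). With replicate number as a block it passed (log2 0.45, adjusted p = 0.0452), and it also passed without replicate 1 of untreated WT cells (log2 0.74, adjusted p = 0.0285) and with scaling by library totals (log2 0.76, adjusted p = 0.0129). In Cfp1-/- cells Sesn1 was at 594.3 and 628.8 without and 686.3 and 724.0 with the drug (log2 0.25, 95% interval -0.20 to 0.70, adjusted p = 0.335). These libraries did not overlap, but the fitted difference was within its error.

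Of the 5 genes, 3 rose and 0 fell in Cfp1-/- cells, where 27.8% of all genes rose and 21.0% fell. By edgeR the 3 that rose were also the only ones with an unadjusted p below 0.05, and DESeq2's Wald test called the same number. The same 3 passed the study's limits, as did 5.38% of all genes upward and 2.23% downward. The 2 responses, which share no library, were compared directly by the interaction of genotype and drug. At an adjusted p below 0.05, 0 of the 5 genes passed this edgeR test, and 0 had an unadjusted p below 0.05, where 0.235% of all genes passed, that is 37 genes, or 243 with replicate number as a block. DESeq2's Wald test also called 0 of the 5. For Ddit4l the Cfp1-/- response minus the WT response was -0.15 (95% interval -0.69 to 0.38). For Sesn2 it was -0.18 (95% interval -0.63 to 0.28). For Ddit4 it was 0.09 (95% interval -0.72 to 0.91), and its sign depended on the untreated WT replicates, being -0.47 without replicate 2. For Sesn3 the interval ran from -0.30 to 0.93 and for Sesn1 from -0.84 to 0.44.

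**Figure D2:**
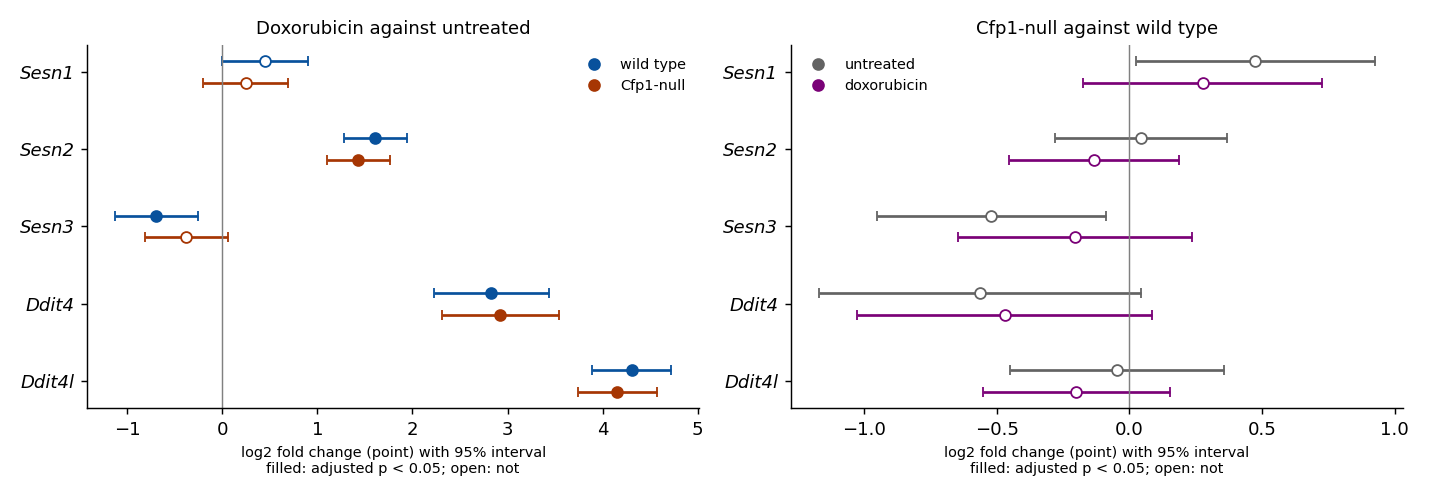
Log2 fold changes of the 5 genes (horizontal axis) with 95% intervals as bars. The left panel gives doxorubicin against untreated in WT and Cfp1-/- cells and the right panel Cfp1-/- against WT cells without and with doxorubicin, with filled points for an adjusted p below 0.05. Filled points on the left are Sesn2, Ddit4 and Ddit4l in both lines and Sesn3 in WT cells, and all points on the right are open.

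The lines were also compared at equal treatment. In untreated cells 0 of the 5 genes passed edgeR's test, where 17.9% of all genes were higher and 16.1% lower in Cfp1-/- cells, and 2 had an unadjusted p below 0.05. These were Sesn1, at 530.0 and 365.9 in WT and 594.3 and 628.8 in Cfp1-/- cells (log2 0.48, SE 0.202, adjusted p = 0.0958), and Sesn3, at 454.4 and 498.3 in WT and 329.1 and 322.0 in Cfp1-/- cells (log2 -0.52, SE 0.193, adjusted p = 0.0625). With replicate number as a block both passed, Sesn1 with an adjusted p of 0.0391 and Sesn3 with 0.0341. Sesn1 also passed without replicate 1 of untreated WT cells (log2 0.78, adjusted p = 0.0325). DESeq2's Wald test called 1 of the 5, Sesn3 (adjusted p = 0.0465). Untreated Ddit4 gave -0.56 (SE 0.271, adjusted p = 0.135), which became -0.95 (adjusted p = 0.0131) without replicate 1 of untreated WT cells and -0.04 without replicate 2. Sesn2 and Ddit4l differed between the untreated lines by 0.04 (95% interval -0.28 to 0.37) and -0.05 (95% interval -0.45 to 0.36).

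With doxorubicin, too, 0 of the 5 genes differed between the lines by edgeR's test, and 0 had an unadjusted p below 0.05, whereas 15.1% of all genes were higher and 10.8% lower in Cfp1-/- cells. DESeq2's Wald test also called 0 of the 5. Ddit4 was at 1309 and 1256 in treated WT and at 957.9 and 860.9 in treated Cfp1-/- cells, a difference of -0.47 (95% interval -1.03 to 0.09, adjusted p = 0.19). Ddit4l was at 2719 and 2734 against 2397 and 2266 (log2 -0.20, adjusted p = 0.377). For both genes every treated WT library was above every treated Cfp1-/- library, by an amount that did not pass the test. Treated Sesn2 overlapped between the lines.

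Levels of different genes were compared as normalized counts per kilobase of exon. In untreated WT cells Sesn2 was highest at 354 ± 6.11 (SD, n = 2), followed by Sesn3 at 220 ± 14.3, Sesn1 at 135 ± 34.9, Ddit4 at 111 ± 48.6 and Ddit4l at 48.8 ± 4.77. The neighbours Sesn1 and Ddit4 overlapped in this order and the other neighbours did not. In treated WT cells the order was Sesn2 at 1045 ± 123, Ddit4l at 935 ± 3.43, Ddit4 at 761 ± 22.1, Sesn1 at 178 ± 26.0 and Sesn3 at 132 ± 3.57. Sesn2 and Ddit4l then differed by less than the spread of Sesn2. Ddit4l thus went from the lowest of the 5 levels to one near that of Sesn2, and from above 40.55% to above 92.59% of all genes tested. The untreated Cfp1-/- order differed in that Sesn1 (184 ± 7.33) stood above Sesn3 (151 ± 2.33), while Sesn2 (358 ± 9.16) was again first and Ddit4l (46.3 ± 10.1) last. In treated Cfp1-/- cells the order was that of treated WT cells, with Sesn2 at 936 ± 133, Ddit4l at 800 ± 31.7, Ddit4 at 540 ± 40.7, Sesn1 at 212 ± 8.01 and Sesn3 at 113 ± 21.8.

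Within each family the make-up of the mRNA pool therefore shifted. The 3 Sestrins summed to 719 and 699 counts per kilobase in untreated WT cells and to 1463 and 1248 with doxorubicin. Sesn2 made up 48.6% and 51.3% of this sum without and 77.4% and 76.8% with the drug. Sesn3 fell from 29.2% and 33.0% to 9.20% and 10.4%. In Cfp1-/- cells the share of Sesn2 went from 51.5% and 51.9% to 75.5% and 72.8%, and that of Sesn3 from 22.3% and 21.2% to 9.38% and 8.40%. The Ddit4 pair rose from 122 and 198 counts per kilobase to 1709 and 1683 in WT cells and from 120 and 119 to 1390 and 1288 in Cfp1-/- cells. Ddit4l made up 37.2% and 26.4% of this pair in untreated and 54.6% and 55.7% in treated WT cells, and 44.5% and 32.9% against 59.1% and 60.3% in Cfp1-/- cells. None of these shares overlapped between treated and untreated libraries, and they were not tested.

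**Figure D3:**
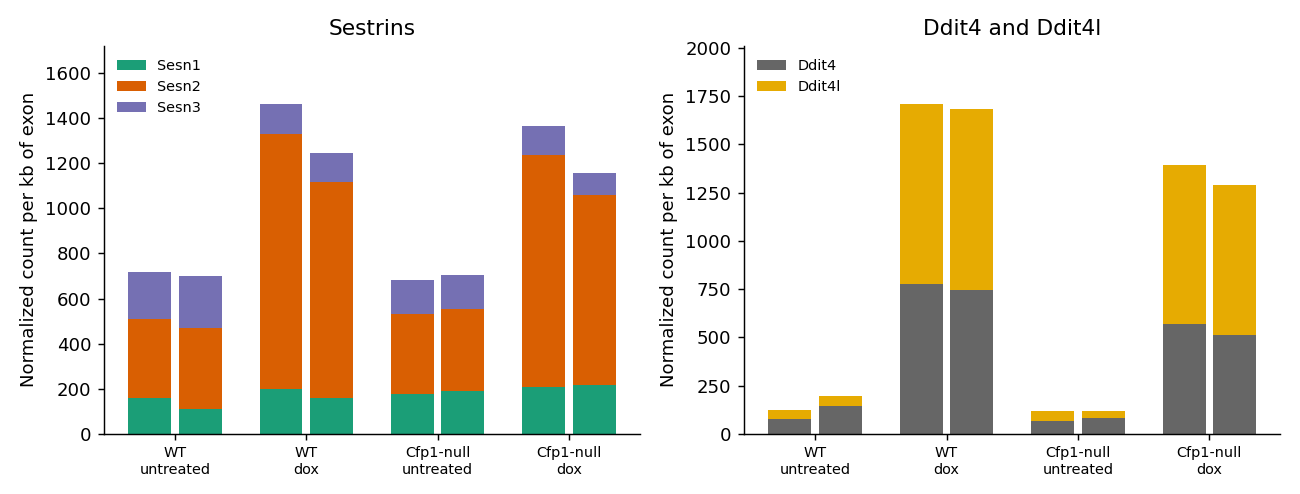
Normalized counts per kilobase of exon (vertical axis) in each of the 8 biological replicates, stacked by gene, for the 3 Sestrins on the left and for Ddit4 and Ddit4l on the right. Sesn2 takes most of the treated Sestrin columns, and the Ddit4 and Ddit4l columns are at most 198 in untreated and at least 1288 in treated libraries.

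Over the 8 libraries, Ddit4, Ddit4l and Sesn2 had similar profiles of log2 CPM (counts scaled to library size), with Pearson correlations of 0.99 for Sesn2 and Ddit4l, 0.98 for Ddit4 and Ddit4l and 0.97 for Sesn2 and Ddit4. Sesn3 ran against them (-0.64 to -0.74) and against Sesn1 (-0.85). These are descriptions over libraries that fall into treated and untreated sets. The 3 genes most like Ddit4l in profile were Scap, Sh2d3c and Adamts7 (0.998 to 0.999), and 1065 genes had a correlation over 0.95 with it. Most like Ddit4 were Tap1, Hmgcll1 and Pou4f3 (0.996 to 0.997), and most like Sesn2 were Slc5a3, Gm10729 and Izumo4 (0.995 to 0.996). Most like Sesn3 were Dr1, Eif4a1 and 2310037I24Rik (0.987 to 0.994), with 164 genes over 0.95. For Sesn1, whose nearest genes were Cmklr1, Zkscan2 and Cenpm (0.979), only 36 genes were over 0.95.

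The genes through which Sestrins and Ddit4 act were taken as 80 genes in 11 lists, all of which passed the filter on low counts. In WT cells 15 of the 80 rose and 19 fell with doxorubicin, and in Cfp1-/- cells 13 rose and 18 fell. In WT cells this was 18.75% up and 23.75% down, beside the 26.5% and 21.8% of all genes given above. In Cfp1-/- cells it was 16.25% up and 22.5% down, beside 27.8% and 21.0% of all genes. The same shares of all genes apply to the counts of each list below. The median change of the 80 genes was -0.08 in WT and -0.01 in Cfp1-/- cells. For the interaction 0 of the 80 passed edgeR's test, 7 had an unadjusted p below 0.05, the block gave 2 and DESeq2's Wald test gave 1. The share of all genes with an unadjusted p below 0.05 was not counted, so the 7 cannot be set against it.

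**Figure D4:**
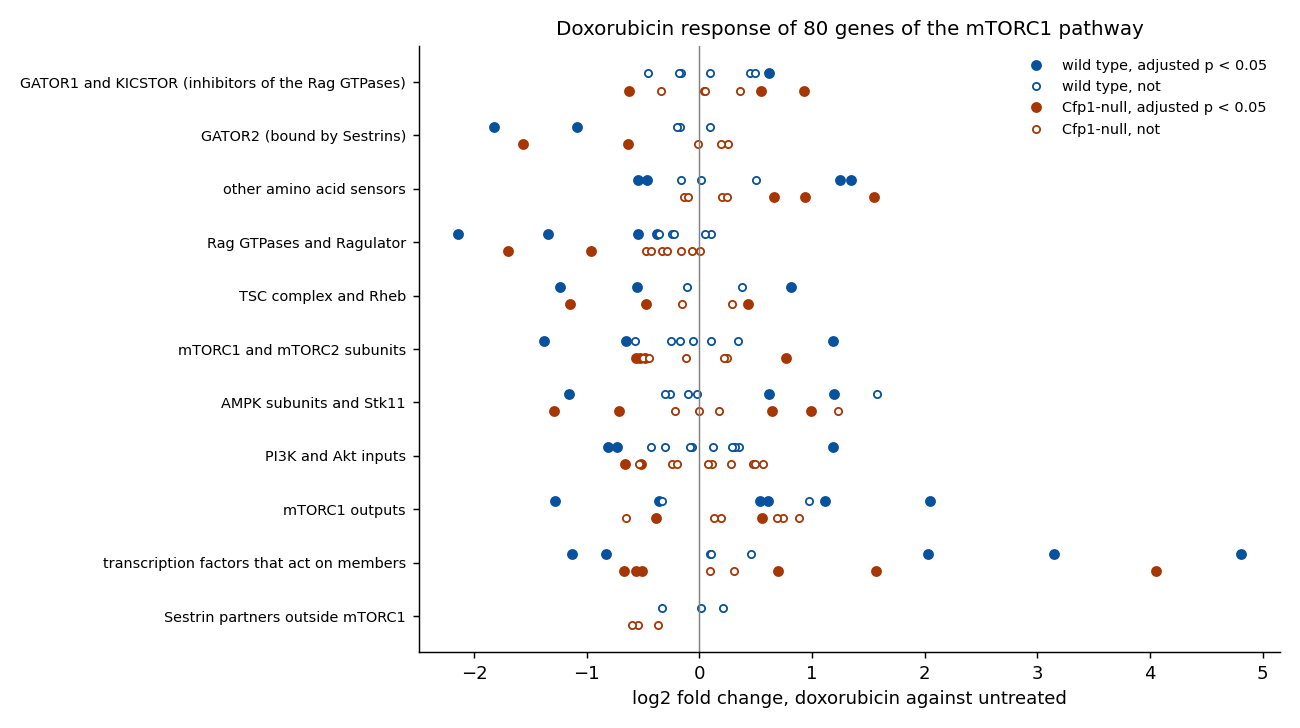
Log2 fold change with doxorubicin (horizontal axis) of 80 genes in 11 lists of the mTORC1 pathway, with WT cells in blue and Cfp1-/- cells in brown. Filled points have an adjusted p below 0.05. Filled points lie on both sides of 0 in most lists, and the largest increase is that of Trp73.

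Among the direct partners of the Sestrins, 0 of the 5 GATOR2 genes rose and 2 fell in each line. Mios, a GATOR2 subunit, was at 1008 and 1205 in untreated and 303.9 and 300.0 normalized counts in treated WT cells. It fell 3.55-fold in WT (log2 -1.83, SE 0.161, adjusted p = 2.54e-05) and 2.96-fold in Cfp1-/- cells (log2 -1.57, adjusted p = 5.42e-05). Of the 7 genes of GATOR1, the brake on the Rag GTPases, and its KICSTOR scaffold, 1 rose and 0 fell in WT cells and 2 rose and 1 fell in Cfp1-/- cells. The GATOR1 subunit Depdc5 rose 1.53-fold in WT cells (log2 0.62, SE 0.134, adjusted p = 0.00417).

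The Rag and Ragulator genes, which place mTORC1 on the lysosome, fell in 4 of 9 cases in WT and in 2 of 9 in Cfp1-/- cells, and 0 rose. The falls were 44.44% and 22.22% of the list, beside 21.8% and 21.0% of all genes. Rragb, a Rag GTPase, was at 1317 and 1483 without and 320.9 and 292.6 with doxorubicin in WT cells, a 4.42-fold decrease (adjusted p = 0.000149). It lies on chromosome X and had 166 counts in the first and 0 in the second run of replicate 1 of treated Cfp1-/- cells. Its decrease in Cfp1-/- cells was log2 -1.70 (adjusted p = 0.000593) and log2 -1.50 (adjusted p = 0.000347) from first runs alone. Rragd fell 2.53-fold in WT cells (log2 -1.34, adjusted p = 0.000229) and 1.95-fold in Cfp1-/- cells (log2 -0.97, adjusted p = 0.00146). Among the 7 other amino acid sensing genes, 2 rose and 2 fell in WT and 3 rose and 0 fell in Cfp1-/- cells. Flcn, folliculin, which acts on RagC and RagD, rose 2.54-fold in WT (log2 1.35, adjusted p = 8.22e-05) and 2.93-fold in Cfp1-/- cells (log2 1.55, adjusted p = 3.95e-05).

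Downstream of Ddit4, 1 of the 5 TSC and Rheb genes rose and 2 fell in each line. Rhebl1, a relative of Rheb, fell 2.37-fold in WT cells (log2 -1.24, adjusted p = 0.00109) and 2.22-fold in Cfp1-/- cells (log2 -1.15, adjusted p = 0.00161). Of the 9 subunits of mTORC1 and mTORC2, 1 rose and 2 fell in WT and 1 rose and 3 fell in Cfp1-/- cells. The mTORC2-binding Prr5l, at 77.3 and 147.0 in untreated and 34.1 and 48.6 in treated WT cells, fell by 1.38 on the log2 scale (adjusted p = 0.0118).

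Of the 8 genes of AMPK and its activator Stk11, 2 rose and 1 fell in WT and 2 rose and 2 fell in Cfp1-/- cells. Prkag3, the muscle AMPK subunit, had the largest WT difference of this list at only 1.70 to 14.4 normalized counts in WT libraries and did not pass (log2 1.58, SE 0.844, adjusted p = 0.151). Of the 11 PI3K and Akt genes, 1 rose and 2 fell in WT and 0 rose and 2 fell in Cfp1-/- cells. Irs2, an insulin receptor substrate, rose in WT cells (log2 1.19, SE 0.340, adjusted p = 0.0163). Irs1 was lower in Cfp1-/- than WT cells without (log2 -2.08, adjusted p = 0.0066) and with doxorubicin (log2 -1.81, adjusted p = 0.0156).

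Of 8 genes for proteins that mTORC1 controls, 4 rose and 2 fell in WT and 1 rose and 1 fell in Cfp1-/- cells. Ulk1, the kinase that starts autophagy, was at 1441 and 940.3 in untreated and 5888 and 3676 in treated WT cells. It rose 4.14-fold there (log2 2.05, SE 0.293, adjusted p = 0.000388). In Cfp1-/- cells Ulk1 was already at 7063 and 4557 untreated and reached 9684 and 8498 (log2 0.69, adjusted p = 0.0678). The untreated lines differed by 2.32 (adjusted p = 0.000583), but the interaction of Ulk1 did not pass over all genes (log2 -1.36, SE 0.399, adjusted p = 0.269). Grb10, an adaptor that dampens insulin signalling, was 4.42-fold lower in untreated Cfp1-/- than WT cells (log2 -2.14, adjusted p = 0.000136).

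Among the 8 transcription factors known to act on these genes, 3 rose and 2 fell in WT and 3 rose and 3 fell in Cfp1-/- cells. Trp53, which encodes p53, did not pass in WT cells (log2 0.10, adjusted p = 0.626) and fell in Cfp1-/- cells (log2 -0.51, adjusted p = 0.0173). Its normalized counts in WT cells were 2473 and 2283 untreated and 2636 and 2286 treated. In Cfp1-/- cells Trp53 started higher, at 4669 and 4324 untreated. After its fall, at 3408 and 2719, it still lay above both treated WT libraries. RNA-Seq does not measure p53 protein. Trp73, which encodes the p53 relative p73, was at 53.5 and 71.9 in untreated and 1991 and 1405 in treated WT cells. It rose 28.1-fold in WT (log2 4.81, SE 0.239, adjusted p = 1.89e-06) and 16.5-fold in Cfp1-/- cells (log2 4.05, SE 0.229, adjusted p = 4.12e-06). Foxo3, a factor known to act on Sesn3, rose 4.09-fold in WT (log2 2.03, adjusted p = 1.21e-05) and 2.96-fold in Cfp1-/- cells (log2 1.56, adjusted p = 4.57e-05). Sesn3 was lower in the same libraries, with a call in WT cells alone. A link between Foxo3 and Sesn3 was not tested. Atf4 fell 2.20-fold in WT cells (log2 -1.13, adjusted p = 0.000637) and 1.59-fold in Cfp1-/- cells (log2 -0.67, adjusted p = 0.012). It was also 5.07-fold lower in untreated Cfp1-/- than in untreated WT cells (log2 -2.34, adjusted p = 5.95e-05). With doxorubicin Atf4 was at 1651 and 2067 in WT and at 513.7 and 481.0 in Cfp1-/- cells. Between the lines Ddit4 gave log2 -0.56 untreated and -0.47 treated and Sesn2 0.04 and -0.13, and none passed edgeR's test. A link between Atf4 and these genes was not tested. Of 3 other Sestrin partners 0 passed in either line by edgeR. In WT cells 0 and in Cfp1-/- cells 2 of them had an unadjusted p below 0.05. Keap1, the inhibitor of Nrf2, gave log2 -0.33 (adjusted p = 0.259) in WT cells.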

How the data were processed

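RNA-Seq was analysed in 16 samples. After removal of ribosomal RNA and strand-specific library preparation, the authors aligned reads to NCBIm37 with STAR (2.2.1 per the labels) and counted them on Ensembl exons with HTSeq-count, stranded and in union mode. They deposited raw counts per technical replicate and one table of normalized counts for the biological replicates, where the signal is the sum of technical replicates over the library's DESeq size factor. The 5 genes and all lists were chosen with earlier results of these data known.

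Technical replicates were summed, and 8 libraries were fitted together with 1 coefficient per group in edgeR 4.0.16 (R 4.3.3) by the quasi-likelihood test, after filterByExpr and TMM scaling. P-values were adjusted over 15758 genes by the Benjamini-Hochberg method. Intervals are 95%. The procedure was also run on simulated counts with the same spread for all genes and no replicate effect or lost runs. That simulation therefore does not bear on those features of the data. Nothing in the sources used here says that biological replicates were separate cultures, so p-values measure only the spread between these samples. Genes of the pathway were named if past the study's limits in any comparison or if largest in their list in WT cells, with Trp53 named after its values were seen. Some items withheld for evaluation are not reported here. The most similar genes were the 3 with the highest Pearson correlation. Symbols were matched to Ensembl identifiers. The labels number the replicates, and deviations from group means of same-numbered libraries correlated in all 6 pairs of groups (0.178 to 0.575 over 12332 genes), so a fit with replicate number as a block was read as paired. Alternatives were DESeq2 1.42.0, other scalings, no filter, the block, first or separate technical replicates, only the groups compared, and leaving out each replicate. The columns of the deposited tables were all used.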

Additional observations from a re-analysis of the deposited data

How the results depend on the processing

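Over 395 refits of the 5 genes, 365 kept direction and side of the threshold, 16 gained and 3 lost a call, and 11 changed sign, none of which passed the test in either fit. Ddit4l, Ddit4 and Sesn2 rose with doxorubicin in both lines under every alternative run. Without one replicate the interactions ran from -0.54 to 0.0096 for Sesn1, -0.47 to 0.44 for Ddit4 and -0.37 to 0.0776 for Ddit4l, with Ddit4 at -0.04 without replicate 1 of untreated and -0.0003 without replicate 1 of treated Cfp1-/- cells. Between untreated lines Ddit4l ran from -0.27 to 0.17, with 0.0469 without replicate 2 of untreated WT cells, and between treated lines Sesn2 ran from -0.30 to 0.0132. Library totals gave -0.0096 for the interaction of Ddit4 and 0.14 for Ddit4l between untreated lines, and first technical replicates gave 0.0365 for the interaction of Ddit4l. The cause was not tested. Genes with an interaction numbered 37 of all genes tested, 133 with no filter, 243 with the replicate block, 1397 with technical replicates as separate libraries, 216 by DESeq2's Wald test and 0 to 13 without one replicate. Of the 80 pathway genes the interaction called 0, against 2 with the block, 9 with separate technical replicates and 1 by Wald test. Between untreated lines 0 of the 5 genes passed, against 1 with DESeq2 size factors, 1 with library totals, 2 with the block, 3 with separate technical replicates, 1 by Wald test and 0 to 2 without one replicate. Between treated lines 1 of the 5 passed with separate technical replicates, Ddit4 (adjusted p = 0.0319). Separate technical replicates also gave 45 against 28 pathway genes between untreated lines, 39 against 22 between treated lines and 7091 against 4074 of all genes between treated lines. They also called Sesn3 in the Cfp1-/- response (-0.40, adjusted p = 0.00244) and Sesn1 in the WT response (0.47, adjusted p = 0.0071). They treat runs of one library as independent samples. Without one replicate, pathway calls ran from 15 to 34 for the Cfp1-/- response, 16 to 27 between untreated and 8 to 22 between treated lines, and calls over all genes from 3075 to 5624 and from 1822 to 4110. The lowest counts came without replicate 2 of treated Cfp1-/- cells (15, 8 and 1822) and without replicate 1 of untreated Cfp1-/- cells (16 and 3075). The replicate block changed no other call of the 5 genes than the 3 given above, for Sesn1 and Sesn3. Library totals shifted the median change of all genes to 0.37 in WT and 0.23 in Cfp1-/- cells. Depth limits Ddit4 and Ddit4l in untreated cells, with 121 to 235 raw counts a library. Single samples were examined for outlying values only in groups of at least 4, so not in these groups of 2.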
